A study of Mus musculus with 16 samples.

Results

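The genes described here encode the mitochondrial protein import machinery, measured as RNA in the cerebellum and hippocampus of mice that overexpress a mutant form of Twinkle and of wild-type mice. Every gene was taken whose only symbol in the array annotation starts with Timm or Tomm followed by a digit, together with Samm50, Pam16, Dnajc15, Grpel1, Grpel2, Pmpca, Pmpcb, Chchd4, Mtx1 and Mtx2. Dnajc19 was also sought and was not analysed here, because no probe set carried it as its only symbol. The rule found 33 genes of 18193. Of these, 32 were tested among 18168 genes, on 64 probe sets. Tomm34 had an empty value on 1 array and was left out of the main test.

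Most proteins of a mitochondrion are made in the cytosol and enter through the TOM complex of the outer membrane. From there, small chaperones of the intermembrane space, the sorting complex of the outer membrane, or the TIM22 and TIM23 translocases of the inner membrane take them on. An ATP-driven motor pulls the precursors bound for the matrix through TIM23, and the processing peptidase removes their targeting sequences. Twinkle, the replicative DNA helicase of mitochondria, is one of the nuclear-encoded proteins that use this route.

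The 16 Affymetrix arrays fell into 4 groups of 4: mutant Twinkle overexpressor and wild type, each in cerebellum and in hippocampus. Mutants numbered 1 to 4 were aged 24, 24, 21 and 21 months, and the wild types with these numbers 26, 24, 21 and 23 months, the same in both regions. Neither the promoter that drives the transgene, nor the strain, nor which cerebellum and hippocampus came from 1 animal is given in the sources used here. RNA came from whole tissue, so fewer cells of a type and less RNA per cell cannot be told apart.

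The deposited values are relative, on a log scale taken as log2. For nearly every probe set the median over the 8 arrays of a region is 0, so a gene's value is its difference from the median array of that region. No expression level can be read from them, nor can a level be compared between genes or between regions. A genotype difference is the mean of the mutants minus the mean of the wild types of 1 region.

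Some arrays stood apart. In the cerebellum, 27 probe sets for poly-A RNA spiked in before labelling averaged 0.55 in mutant replicate 2 and 0.59 in mutant replicate 4. Their mean lay between -0.20 and 0.05 on the other cerebellar arrays. The 18 probe sets for the hybridization spike-ins averaged -0.72 in wild-type replicate 4, against -0.11 to 0.27 on the other cerebellar arrays. Mutant replicates 2 and 4 also differed in cell markers. The 11 choroid plexus markers averaged -1.40 in mutant replicate 4, against -0.43 to 0.68 on the other cerebellar arrays. In mutant replicate 2 the 10 markers of meninges and fibroblasts averaged 0.325 and the 7 of microglia 0.331, while the highest other cerebellar arrays were at 0.08. In the hippocampus, the 11 measured markers of cerebellar granule neurons averaged 2.44 in wild-type replicate 1 and 0.77 in mutant replicate 1, while the lowest hippocampal array was at -0.24. The 6 Purkinje cell markers averaged 1.74 and 0.48 on the same arrays. The markers of meninges and fibroblasts averaged 1.04 in mutant replicate 1 and lay between -0.41 and 0.12 on the other hippocampal arrays. The choroid plexus markers averaged 2.05 in mutant replicate 4 and 0.87 in wild-type replicate 1 of the hippocampus, against a lowest array at -0.42. The 9 ependyma markers averaged -0.05, 0.33, 0.60 and 0.59 in hippocampal mutants 1 to 4, and between -0.32 and -0.02 in the wild types. The 7 dentate granule neuron markers averaged 0.45 in wild-type hippocampus replicate 3, against -0.18 to 0.11 on the other hippocampal arrays. The 3 measured blood cell markers averaged between -0.17 and -0.10 in mutant and between 0.06 and 0.46 in wild-type cerebellum, and between -0.38 and -0.08 in mutant and between 0.09 and 0.82 in wild-type hippocampus, with no overlap of genotypes in either region. The part that these differences in cell or spike-in content play in the results below was not tested. A value without some arrays shows only how far a result rests on them, since all else about these arrays is removed too.

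In the cerebellum, 28 of the 32 import genes had a higher mean in the mutants than in the wild types, against 9744 of all 18168 genes (53.6%). The differences were small. Their median was 0.07, beside 0.0074 over all genes, and they ran from -0.10 for Tomm40, the channel of the TOM complex, to 0.16 for Tomm20l, a relative of the receptor Tomm20. If the log base is 2, the upper end is a ratio of 1.12. No import gene passed an adjusted p of 0.05 in limma (Benjamini-Hochberg over all genes, two-sided), and neither did any other gene (0%). At an unadjusted p under 0.05 there were 4 of 32 import genes (12.5%), all higher in the mutants, against 979 of all genes (5.39%). These were Timm21, Timm17a, Timm23 and Timm10, and 3 of them encode parts of the TIM23 translocase. No import gene had all 4 mutants above all 4 wild types, a pattern shown by 262 of all genes (1.44%), or all 4 below, shown by 185 (1.02%).

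The cerebellar pattern was strongest on 3 arrays. The median over the 32 import genes was 0.08 in mutant replicate 2, 0.07 in mutant replicate 4 and -0.10 in wild-type replicate 2, and between -0.05 and 0.01 in the other 5. The median over all genes stayed between -0.02 and 0.01 on every cerebellar array. Mutant replicate 4 was above 0 for 29 of the 32 import genes, and wild-type replicate 2 was below 0 for 27. Mutant replicate 2 was above 0 for 26, and wild-type replicate 4 was below 0 for 26. Mutant replicate 2 held the highest cerebellar value of 11 import genes (34.4%, against 17.3% of all genes), and wild-type replicate 2 the lowest of 13 (40.6%, against 16.8%). Mutant replicates 2 and 4 are also those with the raised poly-A spike-ins and the shifted cell markers. Without them the median difference of the import genes was 0.03, and the number at an unadjusted p under 0.05 was 0 rather than 4. Over all genes that number was 587 rather than 979, so it was lower there too. It was also 0 import genes (541 of all genes) without mutant replicate 2 alone, 1 (791) without mutant replicate 4 alone and 2 (694) without wild-type replicate 2. The median difference was 0.08 between the genotypes of replicates 1 and 2, the older animals, and 0.05 between those of replicates 3 and 4. Over all genes it was 0.0049 and 0.0114. Of the 32 import genes, 26 were above 0 in replicates 1 and 2, and 27 in replicates 3 and 4. Leaving out single cerebellar arrays, the median difference of the import genes ran from 0.0446 to 0.0851.

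**Figure D1:**
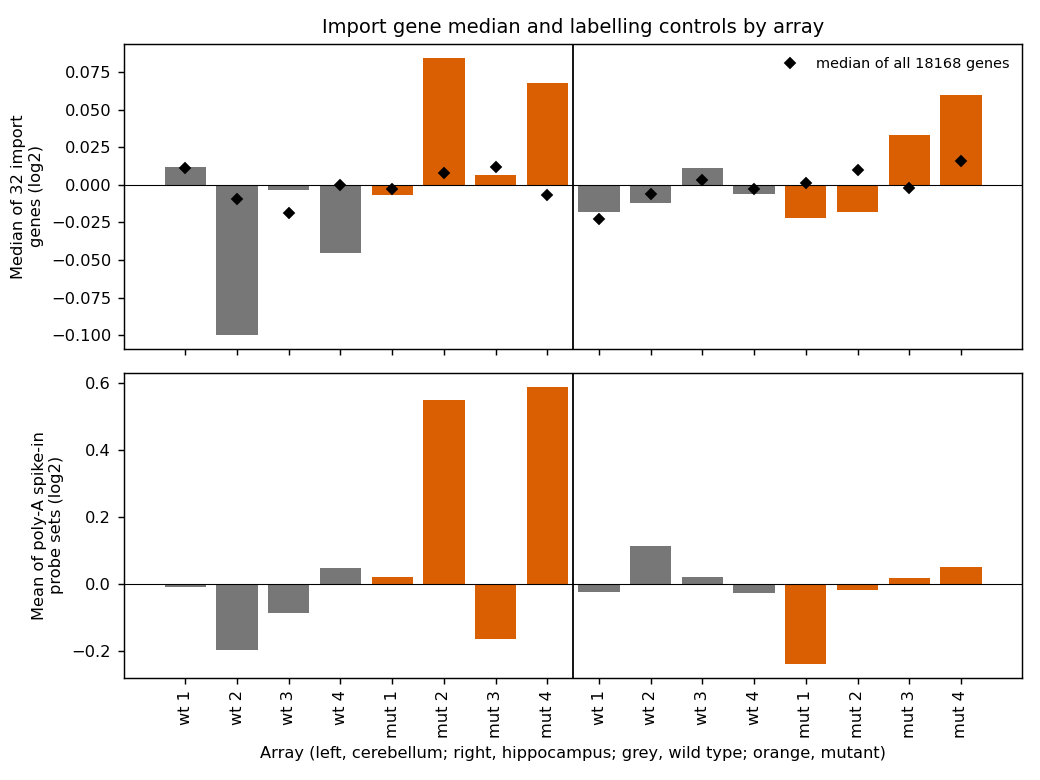
Median of the 32 import genes on each array (upper panel, bars, relative log2 value), with the median of all 18168 genes as diamonds, and the poly-A spike-ins on the same arrays as the mean over their probe sets (lower panel). Mutant cerebellum replicates 2 and 4 have the highest cerebellar bars, 0.08 and 0.07, and the highest spike-in means, 0.55 and 0.59, and wild-type cerebellum replicate 2 has the lowest bar, -0.10.

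In the hippocampus, 21 of the 32 import genes had a higher mean in the mutants, against 10689 of all genes. The median difference was 0.03, beside 0.02 over all genes, and the range ran from -0.10 for Mtx2 to 0.15 for Tomm20l. The import genes therefore lay close to the background here. No gene passed an adjusted p of 0.05 in limma (0% of 18168). No import gene had an unadjusted p under 0.05, against 1459 of all genes (8.03%). Mtx1 and Timm22 had all 4 mutants above all 4 wild types, as did 588 of all genes (3.24%), and Tomm70a had all 4 below, as did 276 (1.52%). The median difference moved between 0.01 and 0.04 as single arrays were left out. Without mutant replicate 4 and wild-type replicate 1, the pair with raised choroid plexus markers, it was 0.0012, beside 0.0085 over all genes.

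**Figure D2:**
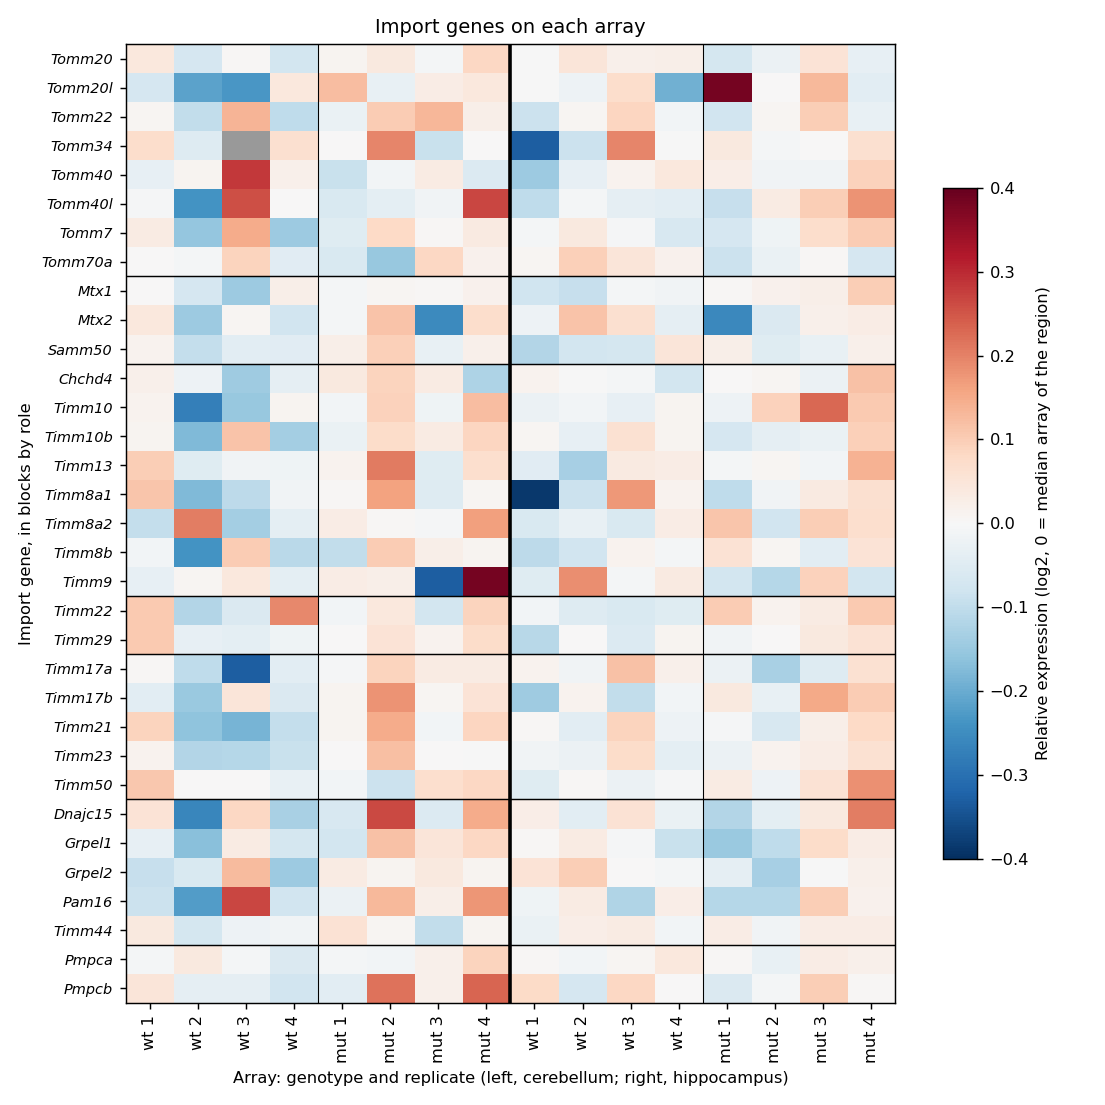
Relative log2 values of the 33 import genes (rows, grouped by role) on the 16 arrays (columns, grouped by region and genotype), with red above and blue below the median array of the region. Red prevails in mutant cerebellum replicates 2 and 4 and blue in wild-type cerebellum replicate 2, and the grey cell is the empty value of Tomm34.

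Averaged over the regions, which gives 4 values per genotype for each gene, 27 of 32 import genes were higher in the mutants, against 10661 of all genes. The median was 0.05 beside 0.01 over all genes, and it was 0.03 without mutant replicate 4. No gene passed an adjusted p of 0.05 in limma (0%), and 3 import genes had an unadjusted p under 0.05, Timm17b, Timm10 and Tomm20l, against 1546 of all genes (8.51%). The genotype difference in hippocampus minus that in cerebellum was above 0 for 10 of 32 import genes, against 9969 of all genes, with a median of -0.03 beside 0.01. No gene passed an adjusted p of 0.05 for it in limma (0%). Timm17a alone among the import genes had an unadjusted p under 0.05 for this difference, against 972 of all genes (5.35%). The median of this regional difference over the import genes was 0.0097 without mutant cerebellum replicates 2 and 4, on the other side of 0.

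**Figure D3:**
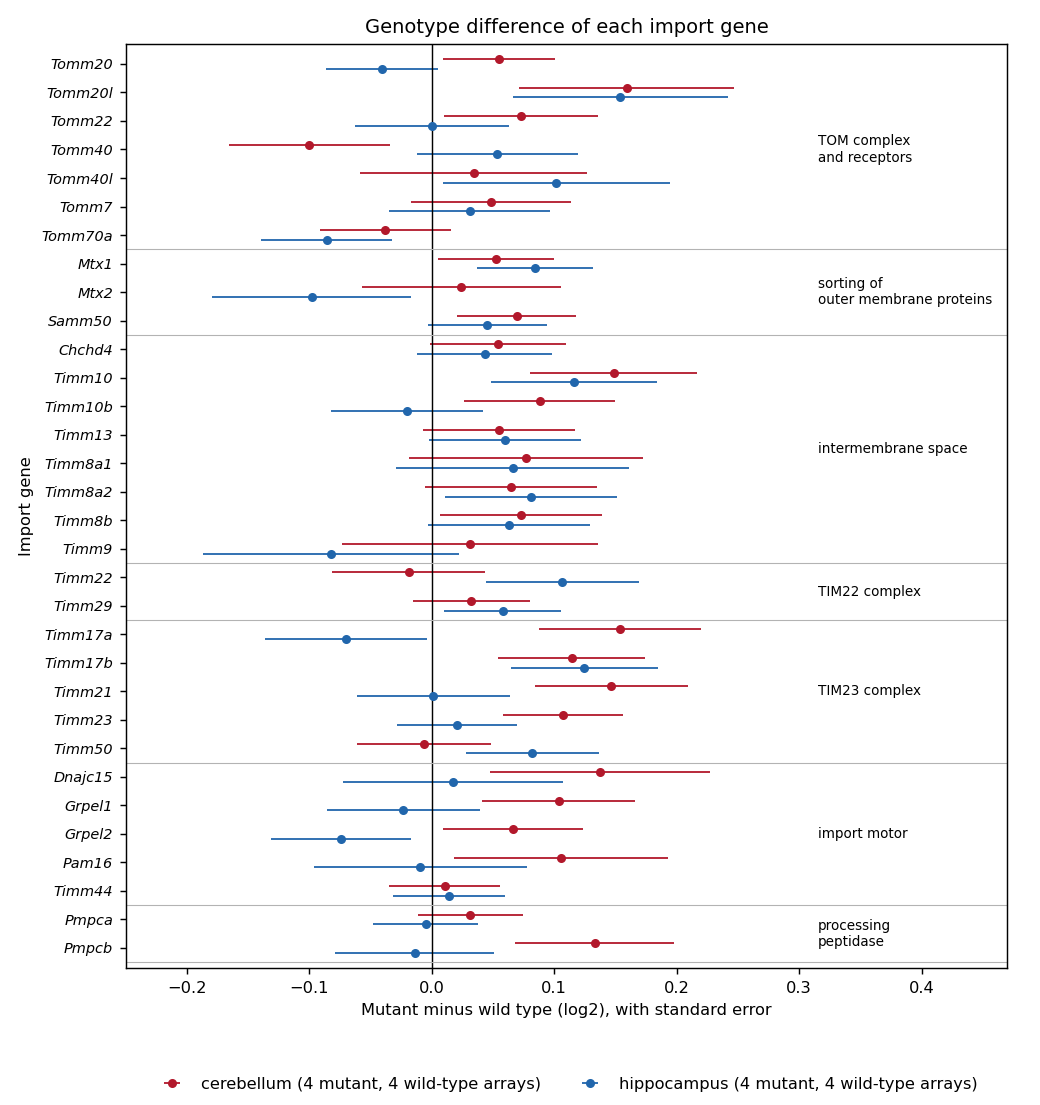
Mutant minus wild-type difference of each of the 32 tested import genes (relative log2, points with standard error bars from limma) in cerebellum (red) and hippocampus (blue), grouped by role. Most red points lie above 0, up to 0.16 for Tomm20l, with Tomm40 lowest at -0.10, and the error bars are of the size of the differences.

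The TOM complex is the common entry gate of the outer membrane. Its 7 genes tested had a median difference of 0.05 in cerebellum and 0.03 in hippocampus, with 5 of 7 above 0 in each. Tomm20 encodes the receptor for precursors with a cleavable targeting sequence. Its difference was 0.06 (SE 0.05) in cerebellum and -0.04 (SE 0.05) in hippocampus. Tomm22, the central receptor that links the others to the channel, differed by 0.07 (SE 0.06) in cerebellum and by 0.0005 (SE 0.06) in hippocampus. For Tomm7, a small subunit, the differences were 0.05 and 0.03 (SE 0.07 in both). None of these had an unadjusted p under 0.05.

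Tomm40 forms the channel itself. In cerebellum its wild-type values in order of replicate number were -0.03, 0.01, 0.28 and 0.02, and its mutant values -0.09, -0.01, 0.03 and -0.05. Wild-type replicate 3 stood above all others, and the remaining values of the genotypes overlapped. The difference was -0.10 (SE 0.07, adjusted p 0.885 in limma), and -0.03 without wild-type replicate 3. In hippocampus the difference was 0.05 (SE 0.07). The regions differed by 0.15 (SE 0.09, unadjusted p 0.117, adjusted p 0.879 in limma), and by 0.08 without that array. Its paralogue Tomm40l differed by 0.03 in cerebellum and 0.10 in hippocampus (SE 0.09 in both).

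Tomm70a encodes the receptor for precursors of the inner membrane carriers, delivered by cytosolic chaperones. Its wild-type hippocampus values were 0.01, 0.09, 0.05 and 0.02, and its mutant values -0.08, -0.03, 0.0040 and -0.07. All 4 mutants were below all 4 wild types, with mutant replicate 3 and wild-type replicate 1 next to each other. The difference was -0.09 (SE 0.05, unadjusted p 0.128, adjusted p 0.685 in limma). It came from 5 probe sets whose own differences ran from -0.20 to 0.02. In cerebellum the difference was -0.04 (SE 0.05).

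Tomm20l had the largest mean difference of the import genes in both regions and on average, on 1 probe set. Its wild-type cerebellum values were -0.07, -0.21, -0.23 and 0.04 and its mutant values 0.12, -0.03, 0.03 and 0.04. In hippocampus the wild types were at -0.0022, -0.02, 0.07 and -0.19 and the mutants at 0.38, 0.0022, 0.13 and -0.04. The genotypes overlapped in both regions, and mutant replicate 1 of the hippocampus was the highest of the 16 values. The differences were 0.16 and 0.15 (SE 0.09 in both), and the average was 0.16 (SE 0.06, unadjusted p 0.0221, adjusted p 0.560 in limma). Mutant replicate 1 of the hippocampus also had the raised markers of meninges and fibroblasts (1.04), of cerebellar granule neurons (0.77) and of Purkinje cells (0.48). Without mutant replicate 1 the hippocampal difference was 0.07 and the average 0.10. Without wild-type replicate 4 the hippocampal difference was 0.10. Tomm34, a cytosolic protein that binds precursors and chaperones, was fitted with its empty value left out, an alternative added after the data were seen. It differed by 0.00041 (SE 0.10) in cerebellum and by 0.08 (SE 0.09) in hippocampus, with 3 wild types in cerebellum.

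Samm50 is the core of the complex that inserts barrel proteins into the outer membrane. The metaxins Mtx1 and Mtx2 are its partners on the cytosolic side of that membrane. Samm50 differed by 0.07 (SE 0.05) in cerebellum and 0.05 (SE 0.05) in hippocampus. Mtx1 in hippocampus was at -0.08, -0.09, -0.01 and -0.02 in the wild types and at 0.0035, 0.02, 0.02 and 0.10 in the mutants. Every mutant exceeded every wild type, by a margin smaller than the spread within either group. The difference was 0.08 (SE 0.05, unadjusted p 0.0918, adjusted p 0.645 in limma), and 0.05 without the pair of arrays with raised choroid plexus markers. It was 0.05 (SE 0.05) in cerebellum. Mtx2 in hippocampus had a difference of -0.10 (SE 0.08). It was -0.03 without mutant replicate 1, where the Mtx2 value was -0.26. That array had raised markers of meninges and fibroblasts, of cerebellar granule neurons and of Purkinje cells.

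The 8 genes of the intermembrane space encode Chchd4, the oxidoreductase that folds incoming cysteine-rich proteins, and the small Tim chaperones that carry hydrophobic precursors across. In cerebellum all 8 had a higher mean in the mutants, with a median difference of 0.07, and in hippocampus 6 of 8, with a median of 0.06. For Timm9 and Timm13 the higher cerebellar mean rested on mutant replicates 2 and 4. Mutant replicates 1 and 3 were at 0.03 and -0.33 for Timm9, against a wild-type mean of -0.0053. For Timm13 they were at 0.01 and -0.05, against 0.0048. Timm10, which forms a ring with Timm9, had the largest difference of the 8 in both regions. Its wild-type cerebellum values were 0.01, -0.28, -0.15 and 0.01 and its mutant values -0.01, 0.09, -0.02 and 0.12. Wild-type replicates 2 and 3 were low, and the other wild types lay within the range of the mutants. The difference was 0.15 (SE 0.07, unadjusted p 0.0436, adjusted p 0.884 in limma), and 0.09 without wild-type replicate 2 or without mutant replicates 2 and 4.

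In hippocampus, Timm10 was at -0.02, -0.01, -0.03 and 0.01 in the wild types and at -0.02, 0.09, 0.23 and 0.10 in the mutants. Mutants 2 to 4 lay above every wild type and mutant 1 among them. The difference was 0.12 (SE 0.07, adjusted p 0.657 in limma), and 0.07 without mutant replicate 3. On average over the regions Timm10 differed by 0.13 (SE 0.05, unadjusted p 0.0202, adjusted p 0.560 in limma). For its partner Timm9 the differences were 0.03 in cerebellum and -0.08 in hippocampus (SE 0.10 in both). Timm9 had the widest spread of any import gene in the mutant cerebellum (SD 0.291, n = 4), from -0.33 in replicate 3 to 0.38 in replicate 4. Its SD was 0.038 in wild-type cerebellum, 0.09 in mutant and 0.10 in wild-type hippocampus, and the SE pools all 4 groups. The other small Tim genes were Timm8a1, Timm8a2, Timm8b, Timm10b and Timm13. Their differences lay between 0.06 for Timm13 and 0.09 for Timm10b in cerebellum, and between -0.02 for Timm10b and 0.08 for Timm8a2 in hippocampus. Chchd4 differed by 0.05 (SE 0.06) and 0.04 (SE 0.06).

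TIM23 is the gate for precursors with a cleavable targeting sequence. Timm23 and Timm17a or Timm17b form its core, Timm50 is its receptor, and Timm21 links it to TOM. Over these 5 genes the median difference was 0.11 in cerebellum, with 4 of 5 above 0, and 0.02 in hippocampus, also with 4 of 5. Timm23 in cerebellum was at 0.01, -0.12, -0.11 and -0.09 in the wild types and at 0.0009, 0.12, 0.0022 and -0.0009 in the mutants. Mutant replicate 2 was far above the other 3, and wild-type replicate 1 lay with the mutants. The difference was 0.11 (SE 0.05, unadjusted p 0.0427, adjusted p 0.884 in limma), against 0.02 (SE 0.05) in hippocampus.

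Timm21 in cerebellum was at 0.09, -0.16, -0.19 and -0.09 in the wild types and at 0.01, 0.15, -0.01 and 0.08 in the mutants. Wild types 2 to 4 were below every mutant and wild type 1 was above 3 of them. The difference was 0.15 (SE 0.06, unadjusted p 0.0319, adjusted p 0.884 in limma), and 0.09 without mutant replicates 2 and 4. In hippocampus it was 0.0012 (SE 0.06). The regions differed by -0.15 (SE 0.09, unadjusted p 0.119, adjusted p 0.879 in limma), and by -0.09 without those 2 arrays. Timm50 differed by -0.0064 (SE 0.05) in cerebellum and 0.08 (SE 0.05) in hippocampus, and its 3 probe sets disagreed in sign in both regions.

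Timm17a and Timm17b are paralogues that take the same place in alternative TIM23 complexes. Timm17a had wild-type cerebellum values of 0.01, -0.10, -0.33 and -0.04 and mutant values of -0.01, 0.09, 0.03 and 0.03. Wild-type replicate 3 was far below the rest, and wild-type replicate 1 lay among the mutants. The difference was 0.15 (SE 0.07, unadjusted p 0.0331, adjusted p 0.884 in limma), and 0.08 without wild-type replicate 3. In hippocampus the wild types were at 0.01, -0.01, 0.12 and 0.02 and the mutants at -0.02, -0.13, -0.05 and 0.06. There the mean was lower in the mutants, by -0.07 (SE 0.07, adjusted p 0.803 in limma), and mutant replicate 4 lay within the wild-type range. The regions differed by -0.22 (SE 0.09, unadjusted p 0.0288, adjusted p 0.867 in limma), and by -0.15 without wild-type cerebellum replicate 3.

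Timm17b had a higher mean in the mutants of both regions. In cerebellum the wild types were at -0.04, -0.15, 0.05 and -0.06 and the mutants at 0.01, 0.18, 0.01 and 0.06. In hippocampus the wild types were at -0.14, 0.01, -0.10 and -0.01 and the mutants at 0.04, -0.03, 0.15 and 0.10. In each region 1 wild type or 1 mutant crossed into the other group. The differences were 0.11 (SE 0.06, adjusted p 0.884 in limma) and 0.12 (SE 0.06, adjusted p 0.613 in limma), and the regions differed by 0.01 (SE 0.08). The average of 0.12 (SE 0.04, unadjusted p 0.00659, adjusted p 0.532 in limma) had the smallest p of the import genes. In hippocampus the 2 probe sets of Timm17b gave 0.07 and 0.18.

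**Figure D4:**
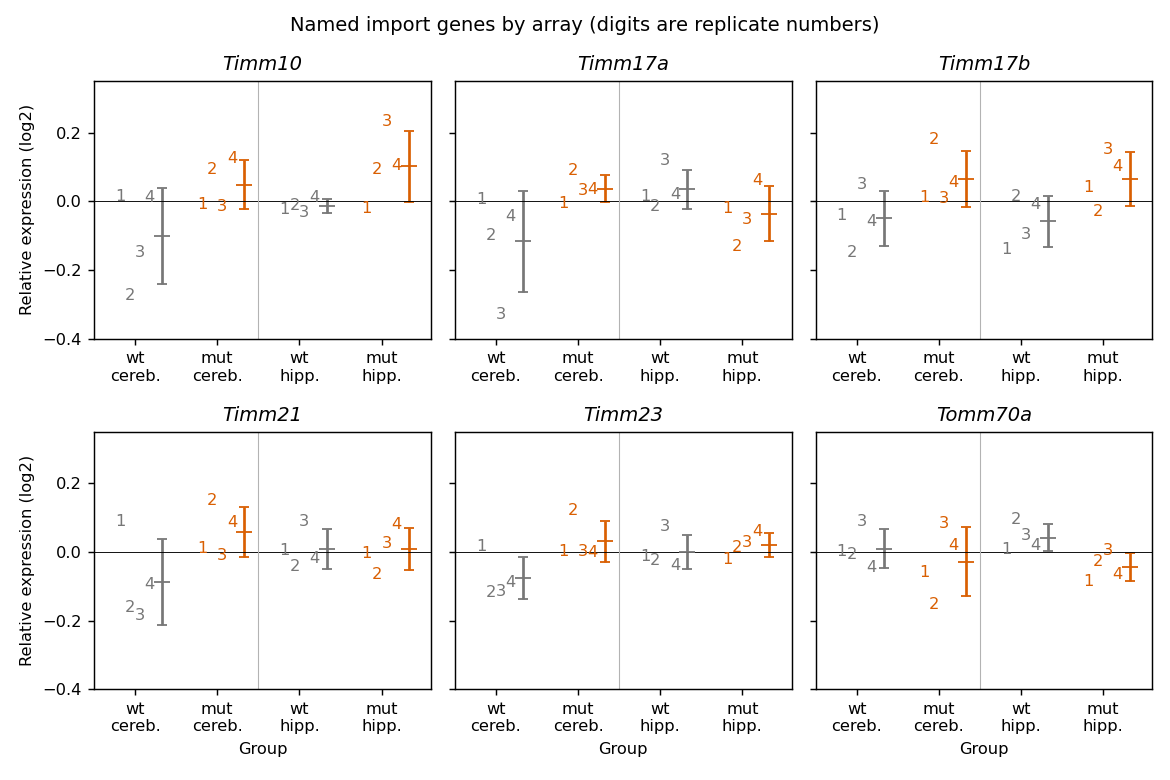
Relative log2 values of Timm10, Timm17a, Timm17b, Timm21, Timm23 and Tomm70a on each array, with digits for the replicate number and bars for the mean and SD (n = 4), by region and genotype. For Timm17a the mutants are above most wild types in cerebellum. In hippocampus its mutants 1 to 3 are below every wild type and mutant 4 is above most. For Tomm70a the hippocampal groups do not overlap.

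The promoter windows of the paralogues and of Timm10 and Timm23, both among the 4 import genes of smallest cerebellar p, are printed to set them side by side. Each runs from 250 bases before to 50 bases after the annotated start in RefSeq (GRCm38.p6), on the gene's own strand. Capitals mark matches to CCGGAAG, the core bound by ETS family factors, on either strand. The motifs of NRF1 and YY1 (AAGATGGCG), regulators of nuclear genes for mitochondrial proteins, had no match in these 4 windows.
Timm17a, chr1:135313688-135313987, minus strand: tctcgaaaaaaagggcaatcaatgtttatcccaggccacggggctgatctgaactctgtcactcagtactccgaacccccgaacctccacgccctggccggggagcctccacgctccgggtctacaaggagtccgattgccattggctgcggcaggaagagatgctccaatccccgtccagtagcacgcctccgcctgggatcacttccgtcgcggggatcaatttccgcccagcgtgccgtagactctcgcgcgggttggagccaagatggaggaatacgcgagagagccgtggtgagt
Timm17b, chrX:7899086-7899385, plus strand: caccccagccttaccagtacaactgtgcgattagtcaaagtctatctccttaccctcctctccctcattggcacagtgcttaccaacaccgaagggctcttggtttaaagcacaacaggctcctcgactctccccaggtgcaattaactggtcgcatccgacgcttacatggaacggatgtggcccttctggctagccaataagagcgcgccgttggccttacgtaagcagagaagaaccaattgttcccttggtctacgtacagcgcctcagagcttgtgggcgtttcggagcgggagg
Timm10, chr2:84826771-84827070, plus strand: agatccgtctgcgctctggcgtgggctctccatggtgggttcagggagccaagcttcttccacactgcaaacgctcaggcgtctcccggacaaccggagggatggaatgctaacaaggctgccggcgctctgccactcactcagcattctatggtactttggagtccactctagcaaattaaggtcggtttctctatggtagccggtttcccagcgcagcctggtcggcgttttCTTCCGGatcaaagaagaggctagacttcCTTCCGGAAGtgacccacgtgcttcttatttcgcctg
Timm23, chr14:32201842-32202141, minus strand: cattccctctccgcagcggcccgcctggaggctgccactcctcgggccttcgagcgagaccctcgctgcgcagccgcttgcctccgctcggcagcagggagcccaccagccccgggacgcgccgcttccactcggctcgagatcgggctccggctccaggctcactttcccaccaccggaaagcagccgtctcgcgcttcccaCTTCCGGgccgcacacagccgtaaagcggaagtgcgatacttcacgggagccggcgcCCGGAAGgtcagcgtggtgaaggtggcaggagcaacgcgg

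Timm10 held the ETS core 16 bases before its start and 13 and 16 bases after it, the last pair overlapping on opposite strands. Timm23 held it 47 bases before and 10 bases after its start. Neither Timm17 gene held it. Of 29 import genes with a window in the table, 14 held CCGGAAG (48.3%), compared with 9.93% of 27025 genes and 15% of the 14345 that were also measured. For the NRF1 motif the count was 4 of 29 (13.8%), against 8.64% of measured genes, and for AAGATGGCG 2 of 29 (6.90%), against 2.54%. CACGTG, the E-box, was in 5 (17.2%, against 10.2%), CCAAT in 8 (27.6%, against 42%) and TATAAA in 1 (3.45%, against 11.5%). TGATGCAA, the composite site of ATF4 and CHOP, was in 0 of 29, against 0.809% of measured genes. All were sought on both strands. The import genes' windows were also richer in G and C, with a median of 59.7% against 52.7% over all genes. The 13 tested genes with the ETS core had a median difference of 0.07 in cerebellum and 0.0005 in hippocampus, and the 15 without it 0.06 and 0.05. A match describes the sequence and shows no binding.

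TIM22 inserts carrier proteins into the inner membrane. Timm22, its channel, was at -0.01, -0.05, -0.06 and -0.05 in wild-type hippocampus and at 0.10, 0.01, 0.03 and 0.10 in mutant hippocampus. All mutants were above all wild types. The difference was 0.11 (SE 0.06, unadjusted p 0.108, adjusted p 0.661 in limma). In cerebellum Timm22 differed by -0.02 (SE 0.06). Timm29, which docks TIM22 to TOM, differed by 0.03 in cerebellum and 0.06 in hippocampus (SE 0.05 in both).

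The 5 measured genes of the import motor had a higher mean in mutant cerebellum in every case, with a median difference of 0.10, and in 2 of 5 cases in hippocampus, with a median of -0.0094. Timm44, which tethers the motor to the channel, differed by 0.01 in both regions (SE 0.05). Pam16 and Dnajc15, which control the motor's ATPase cycle, differed by 0.11 (SE 0.09) and 0.14 (SE 0.09) in cerebellum and by -0.0094 and 0.02 in hippocampus. Grpel1 and Grpel2 are the nucleotide exchange factors of the motor chaperone. In cerebellum they differed by 0.10 (SE 0.06) and 0.07 (SE 0.06), and in hippocampus by -0.02 and -0.07. For Grpel2 the wild-type hippocampus was at 0.06, 0.10, 0.0006 and -0.01 and the mutant at -0.03, -0.13, -0.0003 and 0.02. The groups overlapped, and the regions differed by -0.14 (SE 0.08, unadjusted p 0.101, adjusted p 0.870 in limma). None of the motor genes had an unadjusted p under 0.05 in any comparison.

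Pmpca and Pmpcb are the subunits of the processing peptidase. Pmpcb in cerebellum was at 0.05, -0.04, -0.04 and -0.08 in the wild types and at -0.04, 0.22, 0.02 and 0.23 in the mutants. Mutant replicates 2 and 4 were high and the other 2 lay within the wild-type range. The difference was 0.13 (SE 0.06, unadjusted p 0.0568, adjusted p 0.884 in limma), and 0.01 without these 2 mutants. In hippocampus it was -0.01 (SE 0.06). Pmpca, the subunit that binds the targeting sequence, had the smallest error of the import genes, with differences of 0.03 in cerebellum and -0.0050 in hippocampus (SE 0.04 in both).

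The values of the import genes were about as even within a group as those of other genes, or more even. The median SD within a group of 4 was 0.0732 in mutant cerebellum, 0.0984 in wild-type cerebellum, 0.0713 in mutant hippocampus and 0.0514 in wild-type hippocampus. Over all genes it was 0.0926, 0.0974, 0.0862 and 0.0955. Among import genes the SE of a genotype difference ran from 0.0427 for Pmpca to 0.105 for Timm9. Of the 18 import genes with several probe sets, 10 had probe sets of both signs in cerebellum and 9 in hippocampus.

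Genes that work beside the import machinery were taken in 5 lists, and no gene of these passed an adjusted p of 0.05 in limma in any comparison. At an unadjusted p under 0.05 there were 0 of 45 in cerebellum, 1 (Mtch2) in hippocampus, 2 (Dnajc11 and Lactb) for the difference between regions and 4 (Cox18, Mtch2, Oma1 and Romo1) on average. The shares over all genes were 5.39%, 8.03%, 5.35% and 8.51%, so each count was near or below the background. The 6 matrix chaperones had a median difference of 0.08 in cerebellum and 0.03 in hippocampus. Hspa9, the motor's own chaperone, differed by 0.10 (SE 0.05) in cerebellum and -0.05 (SE 0.05) in hippocampus, and Hspe1, the co-chaperonin, by 0.11 (SE 0.06) in cerebellum. Trap1 and Dnaja3 differed by 0.11 and 0.05 in hippocampus (SE 0.05 in both). The medians of the 5 other peptidases were 0.06 and 0.03. Immp1l, which trims intermembrane space precursors, differed by 0.17 (SE 0.09) in cerebellum. Lactb differed by 0.07 and -0.12 (SE 0.06 in both), and Htra2, an intermembrane space protease, by 0.06 in hippocampus (SE 0.06).

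Over the 15 insertases and partners of the translocases the medians were 0.02 in cerebellum and 0.03 in hippocampus. Mtch2, an outer membrane insertase, differed by -0.12 in hippocampus (SE 0.05, unadjusted p 0.0301, adjusted p 0.587 in limma). Romo1, a partner of TIM23, differed by 0.13 (SE 0.07) in cerebellum, and Cox18, an insertase for a respiratory chain subunit, by 0.09 in both regions (SE 0.05). The 9 cytosolic factors that deliver precursors had medians of -0.01 and -0.02. Among them Dnaja1 differed by 0.09 and -0.07 (SE 0.06 in both), Ubqln4 by -0.16 in cerebellum (SE 0.10) and Dnajb1 by 0.08 in hippocampus (SE 0.10). The 10 genes that watch over import had medians of 0.04 and 0.02. Lonp1, a matrix protease, and Usp30, a deubiquitinase near TOM, differed by 0.09 (SE 0.07) and 0.08 (SE 0.06) in cerebellum. In hippocampus Oma1, a stress-activated protease, differed by 0.15 (SE 0.08), and Pink1, the kinase that builds up when import stalls, by -0.18 (SE 0.10).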

How the data were processed

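The labels describe Trizol extraction and biotin labelling of 5 ug RNA, and the software was GCOS 4.0, per the submitters' processing notes. How probes were summarised, normalized and centred is not given in the sources used here. The authors deposited log-scale values centred within each region: for 99.9% of probe sets the median of the region's 8 arrays lay within 1e-05 of 0. The base of the log is not stated and was taken as log2 of the deposited values. Base 10 does not match, since the widest probe set spanned 8.91 units within a region more than the 4.82 decades that a 16-bit scanner covers. With base e, differences would have to be multiplied by 1.44.

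Of 45101 probe sets, 64 controls and 133 others with an empty value were left out. Of the remaining 44904, 34843 carried 1 symbol in the GEO platform annotation, 931 several and 9130 none. Values of probe sets with 1 symbol were averaged to 18168 genes. Of the import genes 14 rested on 1 probe set and 18 on several. Titles gave the groups. One description field of the hippocampus arrays names cerebellum, and title, source and tissue entry were followed instead.

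Genotype differences were tested in limma 3.58.1 (R 4.3.3; lmFit and eBayes, two-sided, Benjamini-Hochberg over all genes) on all 16 arrays (12 residual degrees of freedom), or on means of same-numbered arrays of a genotype for the average over regions (6). The script was tested on simulated data. The labels call the arrays biological replicates without naming animals, so p-values measure only how these samples spread. The number of arrays limits precision: the median SE over all genes was 0.0741 in each region. Other normalizations, probe set choices, age, blocks and left-out arrays were tried. A filter on dim probes could not be applied, since no level is left.

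The import genes and related lists were chosen with earlier results of these data known. Named were a fixed core of import genes, paralogue pairs, the 5 of smallest p in each region and on average, the 3 of smallest p in the difference between regions, 2 of each related list in each region, and the extremes. Immp2l, Hsp90ab1 and Park2 of the lists were not analysed here. Promoters came from a RefSeq table (GRCm38.p6).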

Additional observations from a re-analysis of the deposited data

Results flagged for a closer look

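In 6 groups of 4 arrays, 1 array stood apart from the other 3 by a gap above Dixon's critical value for a group of that size. Chance alone does so in about 1 in 20 groups, and 131 groups were looked at. Tomm40 in wild-type cerebellum was at 0.2822 in replicate 3 and between -0.0333 and 0.0189 in the others. Timm23 in mutant cerebellum was at 0.1209 in replicate 2 and between -0.0009 and 0.0022 in the others. Tomm40l in mutant cerebellum was at 0.2673 in replicate 4 and between -0.0594 and -0.0149 in the others. Timm29 in wild-type cerebellum was at 0.1048 in replicate 1 and between -0.04 and -0.0186 in the others. Timm13 in mutant hippocampus was at 0.1377 in replicate 4 and between -0.0094 and 0.0076 in the others. Timm44 in mutant hippocampus was at -0.0134 in replicate 2 and between 0.0295 and 0.0305 in the others.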

How the results depend on the processing

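No import gene had an adjusted p under 0.05 in limma under any alternative run, where the smallest was 0.5144 in cerebellum, 0.5251 in hippocampus, 0.6611 for the regional difference and 0.394 for the average. Leaving out each array in turn, the import genes' median difference ran from 0.0446 to 0.0851 in cerebellum and 0.0103 to 0.0425 in hippocampus. For the regional difference it ran from -0.0509 to -0.0162. The average was refitted without both arrays of a genotype and replicate number, and its median ran from 0.0295 to 0.0647. Without mutant cerebellum replicates 2 and 4, chosen after seeing the data, the import genes' median was 0.0255 in cerebellum and 0.0097 for the regional difference. Over all genes, the 0 calls in hippocampus became 1 with quantile normalization, 2 with robust empirical Bayes, 1 without the arrays with raised choroid plexus markers, and 0 to 7 as single arrays were left out. For the difference the 0 became 1 without the choroid plexus arrays and 0 to 1 with single arrays left out. Single probe sets reversed the sign for Samm50 (-0.0146) and Tomm20 (-0.0378) in cerebellum, for Timm50 (-0.0233) and Tomm70a (0.0178) in hippocampus, for Timm50 in the difference (-0.0391) and for Tomm70a on average (0.0057). The causes of these changes were not tested. Differences of single genes smaller than their SE changed sign in 26 further fits in cerebellum, 42 in hippocampus, 64 for the regional difference and 19 for the average. Deviations of same-numbered mutants and wild types correlated at -0.192 to 0.048 in cerebellum and -0.067 to 0.231 in hippocampus. Differently numbered ones correlated at -0.226 to 0.243 in cerebellum and -0.201 to 0.192 in hippocampus. With 4 arrays per group, these values cannot tell whether samples were handled in numbered pairs. With the replicate number as a block, no import gene passed an adjusted p of 0.05, the import genes at an unadjusted p under 0.05 in cerebellum numbered 2 rather than 4 (959 rather than 979 of all genes), and the smallest adjusted p of any gene was 0.898 in cerebellum, 0.126 in hippocampus, 0.704 for the difference and 0.487 for the average. That cerebellar number was 1 with quantile normalization (856 of all genes) and 1 with the region fitted alone (820). The filter on dim probes was not run. The array signal over background is unknown.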
